A study of Mus musculus with 36 samples.

Results

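The transcriptome of wild type mouse cortex was compared between E17.5, an embryonic day shortly before birth, and P25, a postnatal day around weaning. The samples were the 12 wild type libraries of these ages, chosen by genotype and age alone, out of 36 libraries in the study. The study sequenced polyA RNA from cortical tissue of wild type mice and littermates with 1 lost copy of Chd8 (Chd8+/-), a gene for a chromatin remodeller, at 3 ages in all. Every animal was C57BL/6J, was processed individually and received no agent that the labels name. The E17.5 wild type group held 6 embryos, with 3 males and 3 females. The P25 wild type group held 6 mice, also with 3 males and 3 females. The tissue is named dorsal telencephalon at E17.5 and cerebral cortex at P25 (neocortex in the sample titles), and the medial part was removed at both ages. The animals came as litter- and sex-matched pairs with the heterozygotes, and which libraries form a pair is not stated. The age groups carry separate runs of library numbers and were deposited in separate count tables, so differences in handling between the ages and age itself cannot be told apart.

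Late in gestation the cortex still makes its last neurons and first glia from radial glia and intermediate progenitors, while young neurons migrate, extend axons and settle into layers. After birth, astrocytes spread, oligodendrocytes wrap axons in myelin, synapses form, and receptors and ion channels exchange early subunits for late ones. By weaning the excitatory, inhibitory and glial cells of the cortex have most of their adult machinery.

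Total counts were 23774502 to 36542286 per library at E17.5 and 25325593 to 108257517 at P25. The deepest was P25 female 1, and the next deepest P25 library had 34606305. Levels are given as CPM, counts per 1000000 counts of the library, with library sizes adjusted by the trimmed mean of M values method (TMM). Mitochondrially encoded genes took 1.75% to 1.87% of counts at E17.5 and 5.66% to 7.60% at P25, and a ribosomal RNA entry, Rn18s-rs5, took 1.64% to 3.22% and 3.96% to 4.94%. The number of genes at 1 CPM or more was 14334 to 14482 at E17.5 and 15202 to 15445 at P25. The ranges of these shares and gene numbers did not overlap (exact permutation test, two-sided, p = 0.0021645, the smallest that 6 against 6 can give). Xist was at 929 CPM or more in the 6 female libraries and 0.504 CPM or less in the 6 male libraries. The common biological coefficient of variation, the spread between animals of a group, was 0.069 at E17.5 and 0.0992 at P25.

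Markers of neighbouring tissue differed between the ages and between P25 libraries, and their part in the results below was not tested. The summed level of 10 choroid plexus and ependyma markers was 2.79 to 4.26 CPM at E17.5 and 29 to 285 CPM at P25. P25 male 2 was highest with 285 CPM and P25 female 1 next with 195 CPM, and the other 4 P25 libraries lay between 28.98 and 57.8 CPM. Of these markers, Ccdc153 and Tmem212 had no count at E17.5. Ttr, the transthyretin gene that choroid plexus transcribes at very high level, was at 0 to 0.112 CPM (median 0.0194) at E17.5 and 14.9 to 237 CPM (median 30.7) at P25. Without the 2 libraries richest in choroid plexus transcripts, its log2 fold change was 8.93, against 10.77 with them, and that of Aqp1 was 0.59 and no longer passed (adjusted p = 0.147). That exclusion left 8295 genes higher and 8091 lower, close to the counts given next. Sums for 10 meningeal fibroblast markers were 15 to 30 CPM at E17.5 and 99.1 to 179 CPM at P25, again with P25 male 2 highest. Hippocampal markers summed to 329.8 to 409 CPM at E17.5 and 478 to 625 CPM at P25, and striatal markers to 201 to 256 CPM at E17.5 and 436 to 537 CPM at P25. Thalamic markers went the other way, with sums of 250 to 297 CPM at E17.5 and 200 to 242 CPM at P25. Red blood cell transcripts summed to 195 to 286 CPM at E17.5 and 97.9 to 202 CPM at P25, with overlapping ranges. The cortical neuron gene Tbr1 was present in all 12 libraries, at 129 CPM or more.

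Most of the measured transcriptome differed between the ages. Of 18809 genes tested, 16342 (86.9%) passed an adjusted p of 0.05 in edgeR's quasi-likelihood test with sex as a covariate and Benjamini-Hochberg adjustment. At P25, 8301 genes (44.1%) were higher and 8041 (42.8%) lower. The change was at least 2-fold upward in 5186 genes (27.6%) and at least 2-fold downward in 3770 (20%). This excess of rises depended on the scaling: with library totals and no TMM, 4556 genes rose and 4810 fell by at least 2-fold. Large rises outnumbered large falls: 1009 genes rose and 194 fell by at least 16-fold. All 6 P25 libraries lay above all 6 E17.5 libraries for 7229 genes and below them for 6888. The median log2 fold change over all genes tested was 0.01 and the median of its absolute value 0.93, and counts for gene lists below are to be read against these shares. In these bulk samples fewer cells of a type and less RNA per cell cannot be told apart.

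**Figure D1:**
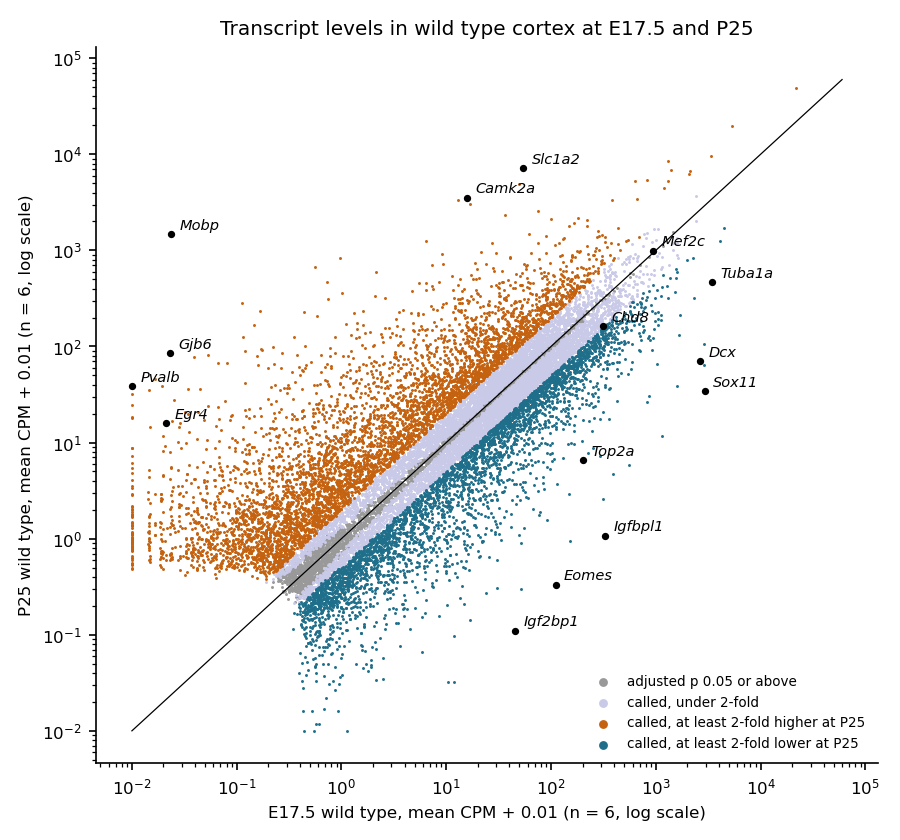
Mean CPM plus 0.01 of each tested gene at E17.5 (x axis) and P25 (y axis), both on log scales, n = 6 libraries per age. Orange points are the 5186 genes at least 2-fold higher at P25 and blue points the 3770 at least 2-fold lower, among genes past the adjusted p threshold; the diagonal is equality, and Mobp and Igf2bp1 lie far from it on opposite sides.

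Genes of the cell cycle fell together. All 20 listed cell cycle genes passed the test and fell by at least 2-fold, with a median log2 fold change of -3.78. Mki67, the proliferation antigen, was at 232 to 283 CPM (median 249) at E17.5 and 6.36 to 10.9 CPM (median 8.74) at P25, a 29.2-fold fall of the mean (log2 fold change -4.87 ± 0.10 (SE), adjusted p = 1.49e-18). Top2a, the topoisomerase that untangles replicated chromosomes, was at 173 to 233 CPM (median 205) at E17.5 and 4.12 to 8.78 CPM (median 6.3) at P25 (log2 fold change -4.97 ± 0.12 (SE), adjusted p = 1.42e-17). For both genes every P25 library was below every E17.5 library. The mitotic kinases and their checkpoint partners moved alike: log2 fold changes were -4.62 for Cdk1, -4.97 for Aurkb and -4.98 for Bub1. Replication licensing genes fell less, with -2.73 for Mcm5, and the smallest fall was that of Pcna, the replication clamp, at -1.60 (76.7 to 25.2 CPM on average). A broader family of 15 tested minichromosome maintenance and origin recognition genes had 14 that fell and none that rose.

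Promoter letters were read for this list because its members moved together. RefSeq promoters (build GRCm38.p6, 250 bases before to 50 after the start) were found for 18 of the 20 genes. Several motifs were searched on both strands. E2F sites (TTTCCCGC, TTTGGCGC, TTTCGCGC or TTTGCCGC) occurred in 4 of 18 (22.2%), against 2.32% of all promoters. TGACGTCA occurred in 2 (11.1%, against 1.88%), CACGTG in 1 (5.56%, against 7.24%) and TATAAA in 0 (against 14.2%). The cell cycle genes homology region, searched as TTTGAA or TTCGAA on both strands, occurred in 9 of 18 (50%), against 19.4% of all 27025 promoters of that length. The CCAAT box, searched as CCAAT on both strands, occurred in 16 of 18 (88.9%), against 37.9% of all. Both were present in 9 of 18 (50%), against 7.70% of all. Matches of the 2 motifs can overlap by 1 base. These matches are descriptions of letters and not measured binding. The 3 promoters in which both motifs lie within the 140 bases before the start are shown for that window, 5′ to 3′ along the gene's strand, with the matches in capitals.
Cdc20, chr4:118437344-118437483, minus strand: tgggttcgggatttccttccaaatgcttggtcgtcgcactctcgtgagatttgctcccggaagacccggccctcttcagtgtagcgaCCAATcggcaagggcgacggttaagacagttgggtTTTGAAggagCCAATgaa
Cdk1, chr10:69352913-69353052, minus strand: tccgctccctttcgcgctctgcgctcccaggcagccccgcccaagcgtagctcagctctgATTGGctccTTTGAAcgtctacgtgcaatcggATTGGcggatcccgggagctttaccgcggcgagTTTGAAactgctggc
Top2a, chr11:99024190-99024329, minus strand: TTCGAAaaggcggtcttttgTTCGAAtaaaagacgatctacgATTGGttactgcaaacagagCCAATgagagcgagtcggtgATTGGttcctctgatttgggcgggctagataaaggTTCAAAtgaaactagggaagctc
Cdc20, which activates the complex that ends mitosis, has 1 homology region match and 2 CCAAT matches in its window, and its transcript was at 13.9 to 18.3 CPM (median 15.7) at E17.5 and 0.752 to 1.54 CPM (median 1.08) at P25. Cdk1, the mitotic kinase, has 2 of each and was at 19.4 to 26.5 CPM (median 21.6) at E17.5 and 0.659 to 1.25 CPM (median 0.91) at P25. The Top2a window holds 3 of each. For the 3 genes every P25 library was below every E17.5 library, as for 6888 of all 18809 genes tested. Birc5 and Tyms had neither motif in the 300 bases read and also fell by at least 2-fold, like all 20 genes of the list.

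Progenitor genes were mostly lower at P25. Of 8 tested intermediate progenitor genes 7 fell and none rose (median -2.13). Eomes, the transcription factor that marks intermediate progenitors, was at 99.3 to 130.1 CPM (median 105) at E17.5 and 0.126 to 0.733 CPM (median 0.27) at P25, a 343-fold fall of the mean (log2 fold change -8.01 ± 0.17 (SE), adjusted p = 2.43e-18). Neurog2, a proneural factor, fell 31.7-fold and Insm1, which drives delamination, 22.4-fold. The radial glia list was split: 10 of 15 genes fell and 4 rose, with a median of -0.82. With library totals or upper quartile scaling in place of TMM, 11 fell and 3 rose. Tnc, an extracellular matrix glycoprotein of the germinal zone, was at 269 to 330.4 CPM (median 287) at E17.5 and 4.8 to 12.9 CPM (median 6.43) at P25. Nes, the intermediate filament of progenitors, fell 12.5-fold and Fabp7, the brain lipid-binding protein, 15.3-fold. The members that rose are also known from astrocytes or neural stem cells: Slc1a3, the glutamate transporter GLAST, rose 5.42-fold and Hopx 3.92-fold. Hes1 and Hes5, effectors of Notch, had log2 fold changes of 0.60 and 0.23. Sox2 fell by only 0.65 on the log2 scale, and Prom1 did not pass the test (-0.14).

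Transcripts of migrating and growing neurons were among the main losses. All 16 listed genes fell, 15 of them by at least 2-fold, with a median of -3.81. Their summed level was 23896 to 24712 CPM at E17.5 and 1773 to 1968 CPM at P25. Sox11, a transcription factor of young neurons, was at 2684 to 3226 CPM (median 2912) at E17.5 and 28.8 to 38.3 CPM (median 35.1) at P25, an 85.5-fold fall (log2 fold change -6.42 ± 0.08 (SE), adjusted p = 6.52e-21). Dcx, the microtubule-binding protein of migrating neurons, was at 2565 to 2797 CPM (median 2648) at E17.5 and 62.5 to 85.8 CPM (median 67.4) at P25 (log2 fold change -5.23 ± 0.08 (SE), adjusted p = 4.41e-20). The 6 P25 libraries held less of each than any E17.5 library. Igfbpl1 fell 309-fold and Cd24a, a surface glycoprotein, 97.8-fold. The neurogenic factors fell unequally, with log2 fold changes of -1.82 for Neurod1, -2.67 for Neurod2 and -3.94 for Neurod6. Gap43, the growth cone protein that adult cortex keeps making, fell least, by 0.99 on the log2 scale.

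Guidance genes leaned downward without moving as a block. Of 29 genes 19 fell and 8 rose (median -0.93). Draxin, a secreted repellent of forebrain commissural axons, was at 136 to 170.2 CPM (median 154) at E17.5 and 0.566 to 1.17 CPM (median 0.96) at P25 (log2 fold change -7.36 ± 0.10 (SE), adjusted p = 7.48e-21). The Slit receptor Robo1 fell 8.8-fold and the netrin receptor Dcc 5.45-fold, and Epha3, an ephrin receptor, fell 19.1-fold. Robo3 went the other way, from 0.0782 to 0.713 CPM (median 0.423) at E17.5 to 41.4 to 102 CPM (median 60.3) at P25. The ligand Slit3 rose 20.8-fold and Slit2 2.41-fold, while Slit1 had a log2 fold change of -0.38 with overlapping groups. Among 9 tested plexins 6 fell and 3 rose, Plxnb3 most, by 6.90 on the log2 scale.

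Excitatory layer identity genes fell in part. Of 11 tested deep-layer genes 10 fell and 1 rose (median -1.37), and of 10 upper-layer genes 7 fell and 2 rose (median -1.13). Sox5, which times the birth of deep-layer neurons, was at 345 to 405 CPM (median 386) at E17.5 and 61.9 to 72.3 CPM (median 67.3) at P25, a 5.67-fold fall (log2 fold change -2.50 ± 0.05 (SE), adjusted p = 2.83e-18). Fezf2 and Bcl11b, which specify subcerebral projection neurons, fell 4-fold and 3.77-fold. Cux2 had a log2 fold change of -0.29, and Rorb, a factor of layer 4, one of 0.50 with overlapping groups. Mef2c, an activity-dependent factor of neurons, did not pass the test (0.08). Crym was the deep-layer gene that rose, 2.3-fold. Of 9 Cajal-Retzius and subplate genes, 6 fell and 3 rose. Reln, the secreted layering signal of Cajal-Retzius cells, was at 427 to 504 CPM (median 472) at E17.5 and 80 to 142 CPM (median 108) at P25, while Cplx3, a complexin used as a subplate marker, rose 242-fold from 0.0803 to 19.5 CPM.

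Most inhibitory neuron genes rose. Of 14 genes 11 rose and 3 fell, with a median of 2.67. Pvalb, the calcium buffer of fast-spiking interneurons, had no count in the 6 E17.5 libraries and was at 27.8 to 45.4 CPM (median 40.4) at P25. That is at least 2663-fold higher against a floor of 3 counts over the E17.5 group. Vip, a peptide of another interneuron class, rose from a mean of 0.0239 to 36.2 CPM, and Sst, somatostatin, rose 13.8-fold. Gad1 and Gad2, the enzymes that make GABA, rose 6.5-fold and 3.41-fold. Lhx6, the factor of interneurons born in the medial ganglionic eminence, fell 3.73-fold, and Nos1 and Htr3a fell 2.37-fold and 1.75-fold. The ventral telencephalon list, which holds factors of migrating interneurons as well as of ventral tissue, had 8 of 9 tested genes lower, among them Dlx1 (-1.70) and Dlx2 (-2.29). Its summed level was 122 to 182 CPM at E17.5 and 46.9 to 53.1 CPM at P25.

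Myelin genes had the highest median of the gene lists examined. All 15 genes of myelinating oligodendrocytes rose by at least 2-fold, with a median of 9.02 and a summed level of 41.9 to 48.8 CPM at E17.5 and 8426 to 11198 CPM at P25. Mobp, a protein of compact myelin, had 3 counts in the whole E17.5 group and was at 1178 to 1781 CPM (median 1436) at P25, a ratio of 102957 (95% counting interval 35229.9 to 499247). Mbp, which compacts the sheath, was at 14.5 to 18.9 CPM (median 16.8) at E17.5 and 2648 to 3502 CPM (median 2954) at P25, a 182-fold rise (log2 fold change 7.51 ± 0.09 (SE), adjusted p = 4.38e-21). All P25 libraries exceeded all E17.5 libraries for each of the 15, as for 7229 of all 18809 genes tested. Opalin had no E17.5 count and was at least 1710.1-fold higher. Myrf, the factor that switches on myelin genes, rose 131-fold. Ermn had the smallest change of the list, 15.3-fold.

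Precursor genes of the same lineage rose less. Of 10 genes 9 rose, with a median of 2.62. Pdgfra, the growth factor receptor that defines precursors, was at 22 to 31.4 CPM (median 28.1) at E17.5 and 93.3 to 108 CPM (median 98.8) at P25, a 3.57-fold rise (log2 fold change 1.83 ± 0.07 (SE), adjusted p = 1.45e-14). Olig2 rose 2.79-fold, and Gpr17 and Bcas1, known from cells about to differentiate, rose 25.9-fold and 158-fold. Vcan, a proteoglycan that other cells of the embryonic cortex also make, fell 10.1-fold and held most of the list's counts at E17.5. The ranges of the summed level overlapped, at 642 to 689 CPM at E17.5 and 660.2 to 739 CPM at P25.

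Of 14 astrocyte genes 13 rose and none fell (median 4.70). Slc1a2, the glutamate transporter GLT-1, was at 47.2 to 65.7 CPM (median 50.5) at E17.5 and 6594 to 8169 CPM (median 7054) at P25, a 131-fold rise (log2 fold change 7.04 ± 0.11 (SE), adjusted p = 2.68e-20), and at P25 it was the fifth entry by counts. Aqp4, the water channel of astrocyte endfeet, was at 2.06 to 4.54 CPM (median 3.22) at E17.5 and 166 to 226 CPM (median 194) at P25 (log2 fold change 5.88 ± 0.14 (SE), adjusted p = 1.08e-17). Gjb6, the connexin 30 gene, had 3 E17.5 counts and a ratio of 5879.8 (95% counting interval 2012 to 28512). Aldh1l1, a pan-astrocyte marker, rose only 2.76-fold. Sox9, a factor that radial glia share with astrocytes, was at 23.7 to 29.9 CPM (median 25.6) at E17.5 and 23.8 to 29.3 CPM (median 26.3) at P25 and did not pass the test (log2 fold change -0.00 ± 0.07 (SE), adjusted p = 0.97).

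Microglial genes rose together. All 14 rose by at least 2-fold, with a median of 3.45 and the largest log2 fold change, 4.98, for Tmem119. Cx3cr1, the fractalkine receptor, was at 4.19 to 6.85 CPM (median 4.64) at E17.5 and 47.9 to 62.8 CPM (median 51.4) at P25, a 10.7-fold rise (log2 fold change 3.41 ± 0.09 (SE), adjusted p = 1e-16). Tmem119, a marker of mature microglia, rose 31.1-fold. The complement genes C1qa, C1qb and C1qc had log2 fold changes of 3.51, 3.31 and 3.37.

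Most vascular genes rose. Of 14 endothelial genes 11 rose and 1 fell (median 1.11), and of 9 pericyte and smooth muscle genes 7 rose and 2 fell. The endothelial sum was 206 to 241 CPM at E17.5 and 474 to 625 CPM at P25. The junction genes Cldn5 (-0.01) and Cdh5 (0.08) did not pass the test. Cldn5, the tight junction claudin of the blood-brain barrier, was at 13.6 to 15.5 CPM (median 14.8) at E17.5 and 11.6 to 17.3 CPM (median 14.8) at P25, and the groups overlapped. The largest change of the endothelial list was that of Slco1a4, an organic anion transporter, which was at 0 to 0.0559 CPM (median 0.0343) at E17.5 and 66.8 to 87.4 CPM (median 81) at P25 (log2 fold change 11.24 ± 0.18 (SE), adjusted p = 4.68e-20), and the efflux pump gene Abcb1a rose 7.21-fold. Kdr, the main VEGF receptor of sprouting vessels, fell 2.15-fold. Among mural cell genes, the contractile Acta2, Tagln and Myh11 rose 27.7-fold, 34.1-fold and 17-fold, while the pericyte channel genes Kcnj8 and Abcc9 fell 1.81-fold and 1.89-fold. The meningeal sums given above were also higher at P25, and their part in these rises was not tested. Among P25 libraries the meningeal sum was highest in male 2 (179 CPM) and lowest in female 3 (99.1 CPM). The endothelial and mural sums were highest in female 3 (625 and 381 CPM), and the mural sum was next highest in male 2 (318 CPM). How these orders within P25 relate to the difference between the ages was not tested.

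**Figure D2:**
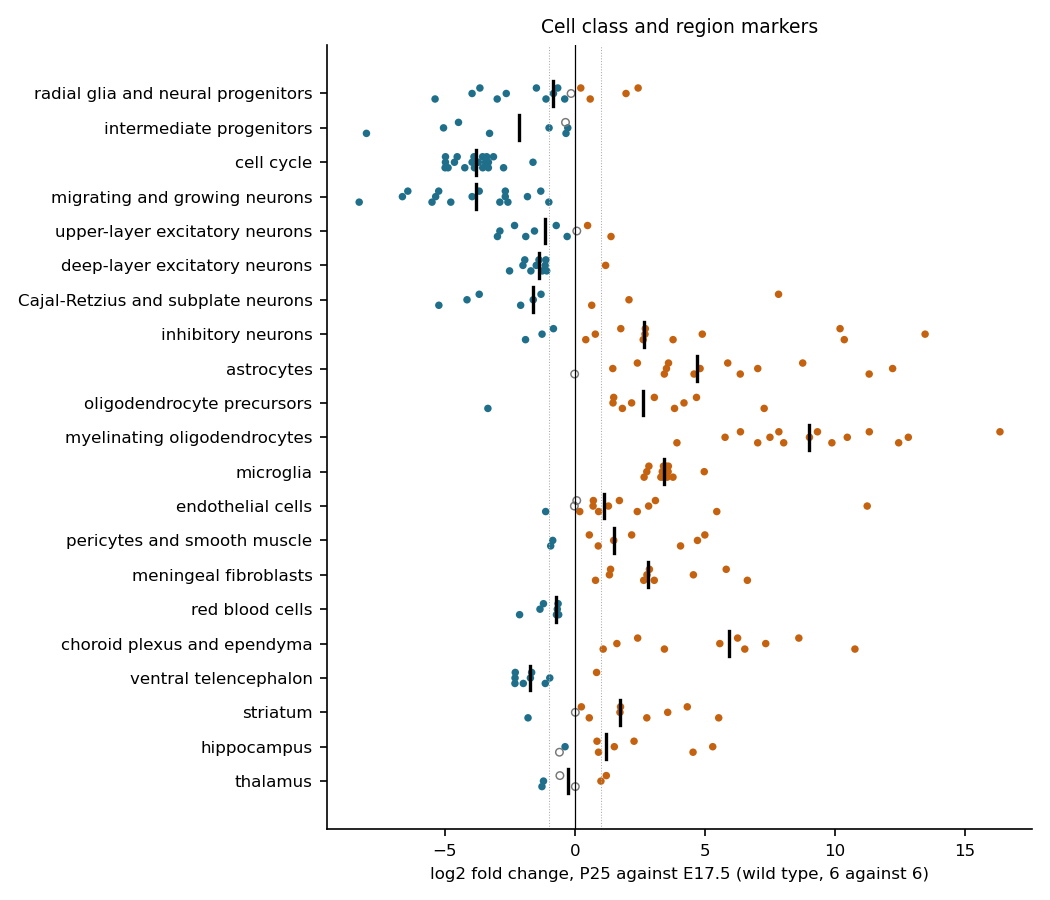
Log2 fold change of each tested gene (1 dot per gene) in lists of cell class and region markers, P25 against E17.5, with the list median as a black bar. Orange dots rose and blue dots fell past the adjusted p threshold, open dots did not pass, and dotted lines mark 2-fold; cell cycle and migrating neuron genes lie wholly to the left and myelin and microglial genes wholly to the right.

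Genes of synaptic transmission rose on both sides of the synapse. In the presynaptic list 21 of 23 genes rose and 2 fell (median 2.71). In the postsynaptic density list all 18 rose (median 2.07). Camk2a, the kinase of synaptic potentiation, was at 13.5 to 20.4 CPM (median 15.5) at E17.5 and 3217 to 3855 CPM (median 3584) at P25, a 223-fold rise (log2 fold change 7.80 ± 0.10 (SE), adjusted p = 5.05e-21). Nrgn, the calmodulin-binding neurogranin, rose 198-fold, whereas Camk2b, the sister kinase subunit, rose 1.96-fold. Snap25, a SNARE of vesicle fusion, was at 172 to 190.3 CPM (median 179.6) at E17.5 and 1818 to 2465 CPM (median 2172) at P25 (log2 fold change 3.58 ± 0.07 (SE), adjusted p = 6.56e-19). Slc17a7, which loads glutamate into vesicles, rose 43-fold. The 2 presynaptic genes that fell were Slc17a6, a vesicular glutamate transporter of early cortex, and Syt4, by 1.26 and 1.32 on the log2 scale. Slc17a6 is also a member of the thalamic marker list, whose sum was lower at P25, and the part of thalamic tissue in its fall was not tested.

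Most receptor genes rose as well. Of 24 tested glutamate receptor genes 21 rose and 3 fell (median 1.38). Grin2a, an NMDA receptor subunit of mature synapses, was at 6.41 to 9.1 CPM (median 7.17) at E17.5 and 373 to 472 CPM (median 434) at P25, a 58.3-fold rise (log2 fold change 5.86 ± 0.08 (SE), adjusted p = 8.55e-21). Grin2b, its early counterpart, was at 687 to 939 CPM (median 714) at E17.5 and 974 to 1233 CPM (median 1118) at P25 and rose 1.46-fold (log2 fold change 0.55 ± 0.08 (SE), adjusted p = 2.05e-06). Gria2, the AMPA receptor subunit that limits calcium entry, fell by 0.53 on the log2 scale, and Gria1, Gria3 and Gria4 rose 2.17-fold, 4.14-fold and 2.05-fold. The kainate receptor genes Grik2 and Grik3 were the other falls (-0.40 and -0.92). Of 19 GABA and glycine receptor genes 17 rose and 1 fell (median 1.79). Gabrd, a subunit of extrasynaptic receptors, was at 1.23 to 1.65 CPM (median 1.53) at E17.5 and 33.2 to 51.3 CPM (median 47.1) at P25, a 30.1-fold rise (log2 fold change 4.91 ± 0.11 (SE), adjusted p = 3.21e-18). Glra2, the fetal glycine receptor subunit, was the one that fell, 5.11-fold. Slc12a5, the chloride exporter KCC2 that makes GABA inhibitory, was at 11.2 to 19 CPM (median 13) at E17.5 and 459.9 to 539 CPM (median 503) at P25, a 36.8-fold rise (log2 fold change 5.20 ± 0.10 (SE), adjusted p = 7.69e-19). Slc12a2, the chloride importer NKCC1, also rose, 1.84-fold.

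Voltage-gated channel genes mostly rose, with falls of several members. Among 10 sodium channel genes 7 rose and 3 fell. Scn8a, the alpha subunit of mature axon initial segments, was at 99.1 to 114 CPM (median 104) at E17.5 and 494 to 579.9 CPM (median 543) at P25 and rose 5.11-fold (log2 fold change 2.35 ± 0.05 (SE), adjusted p = 4.07e-18). Scn3a, an embryonic alpha subunit, fell 3.27-fold and Scn9a 7.97-fold. Of 30 potassium and HCN channel genes 25 rose and 4 fell (median 2.08). Kcna2, an axonal potassium channel, rose 25.1-fold, and Kcnc1, needed for fast spiking, 3.65-fold. Hcn2, a pacemaker channel, rose 12-fold, while Hcn4 was at 34.5 to 44.4 CPM (median 38.1) at E17.5 and 2.95 to 5.71 CPM (median 3.68) at P25 and fell 9.42-fold (log2 fold change -3.28 ± 0.13 (SE), adjusted p = 2.17e-14). Over the whole potassium channel family 67 of 85 tested genes rose and 15 fell. Of 18 calcium channel genes 15 rose and 1 fell, the T-type Cacna1h (-1.48).

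Early and late members of a protein class, called forms here, were compared as 23 pairs of genes. The scale was per length, CPM per kb of annotated exon in GENCODE M21. The pairs were named early and late from general knowledge, but with earlier results of these data known. Their counts therefore describe the chosen pairs only. In 11 pairs the early form fell and the late form rose. In 7 pairs both rose and in 3 both fell. The ratio of late to early moved toward the late form in 18 pairs and toward the early form in 5. In all 23 the ratios of the 6 P25 libraries did not overlap those of the 6 E17.5 libraries. Such separation was common: of 18809 single genes tested, 7229 were higher and 6888 lower at P25 without overlap. The share among other gene pairs was not computed. The late form was the higher of the pair in 6 of 23 at E17.5 and in 16 of 23 at P25.

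For the NMDA receptor, Grin2b went from 30.7 to 44.9 CPM per kb and Grin2a from 0.408 to 23.8 CPM per kb (mean levels), so that the ratio of Grin2b to Grin2a went from 75.2 to 1.89 without crossing 1. For the vesicular glutamate transporters, Slc17a6 went from 12.5 to 5.21 CPM per kb and Slc17a7 from 5.11 to 219.9 CPM per kb (mean levels), and the ratio crossed 1. For the chloride transporters, Slc12a2 went from 7.18 to 13.2 CPM per kb and Slc12a5 from 1.83 to 67.5 CPM per kb (mean levels), which also crossed. In the polycomb methyltransferases, Ezh2 went from 23.5 to 1.49 CPM per kb and Ezh1 from 4.88 to 7.48 CPM per kb (mean levels). Among beta tubulins, Tubb2b went from 1259.8 to 46.4 CPM per kb and Tubb4a from 81.7 to 235 CPM per kb (mean levels). The 5 pairs that moved toward the form called early were Ss18 with Ss18l1, Phf10 with Dpf1, Ptbp1 with Ptbp2, Rpl22l1 with Rpl22 and Hapln1 with Hapln2. Ss18l1 and Dpf1, subunits of the neuronal BAF complex, were already above their partners per kb at E17.5 and fell by 1.57 and 1.77 on the log2 scale. Hapln1 and Hapln2, link proteins of perineuronal nets and nodes, both rose, 429-fold and 47.8-fold.

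**Figure D3:**
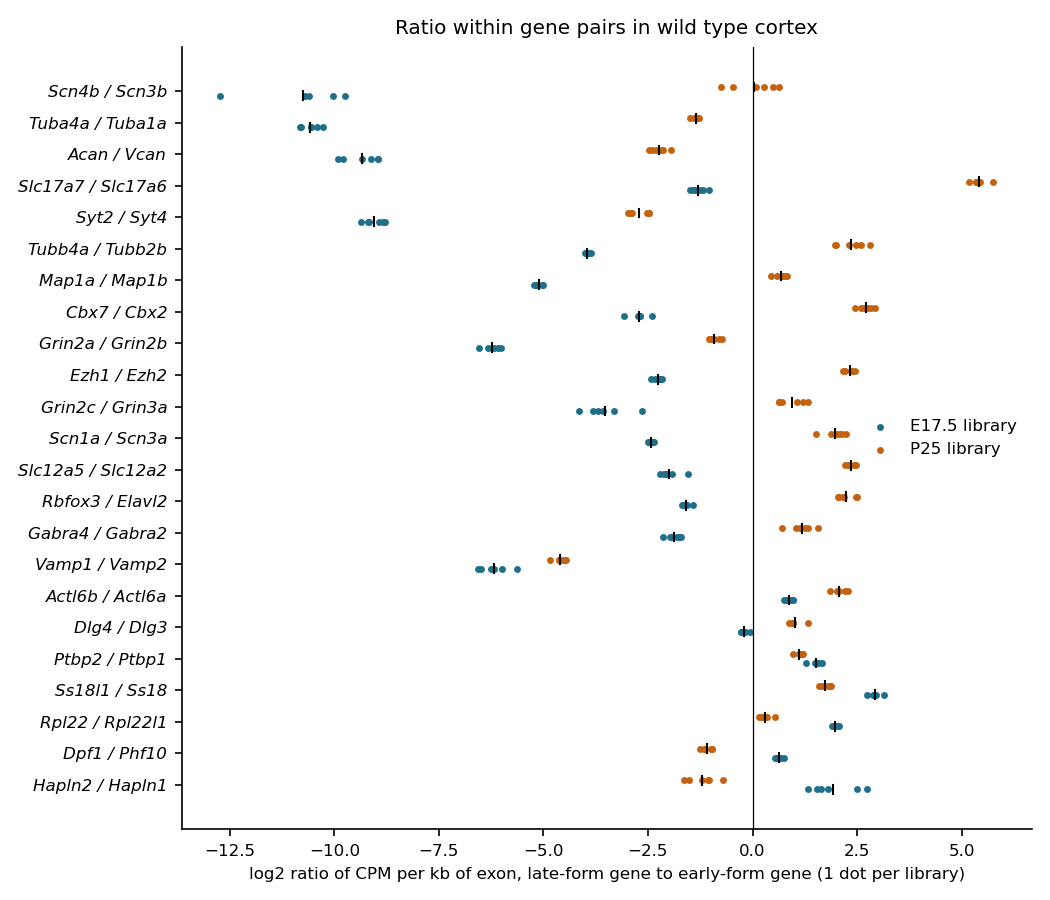
Log2 ratio of CPM per kb of exon between the late-form and the early-form gene of 23 pairs, 1 dot per wild type library (blue E17.5, orange P25) and a black tick at the mean of the libraries drawn; 1 E17.5 library with no Scn4b count is not drawn. In every row the blue and orange dots are apart, and 18 of the 23 rows shift to the right at P25.

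Activity-regulated genes were higher at P25 and varied widely between P25 animals. Of 18 genes 17 rose and 1 fell, with a median of 4.54; with library totals as the scale 14 rose and 1 fell. Their summed level was 296 to 362 CPM at E17.5 and 1036 to 2012 CPM at P25. Arc, which traffics AMPA receptors, was at 0.391 to 0.776 CPM (median 0.573) at E17.5 and 64.4 to 335 CPM (median 229.8) at P25 (log2 fold change 8.53 ± 0.49 (SE), adjusted p = 5.28e-12). Fos, an immediate early factor, was at 0.104 to 0.392 CPM (median 0.191) at E17.5 and 9.77 to 38.1 CPM (median 31.7) at P25 (log2 fold change 6.92 ± 0.43 (SE), adjusted p = 1.75e-11). Egr4 had 2 counts in the E17.5 group and a ratio of 1651 (95% counting interval 457 to 13632). The orphan receptor Nr4a3 was the gene that fell (-0.79), and Fosl2, Nr4a2, Dusp1 and Ier2 passed with overlapping groups. P25 male 3 had the highest sum and P25 female 3 the lowest, and what each animal experienced before dissection is not given in the labels.

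Circadian and hormone response genes rose in 19 of 20 cases (median 2.49). Klf9, a target of thyroid hormone and glucocorticoid, was at 5.5 to 7.9 CPM (median 6.32) at E17.5 and 398 to 519.8 CPM (median 464) at P25, a 71.3-fold rise (log2 fold change 6.15 ± 0.09 (SE), adjusted p = 1.29e-20). The clock outputs Dbp and Hlf rose 16-fold and 26.9-fold, and the repressor Per3 14.1-fold. Thrb, the beta thyroid hormone receptor, rose 17.1-fold, while Thra, the alpha receptor, fell by 0.35 on the log2 scale. The time of day of collection is not given in the labels.

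Chromatin regulators declined. Chd8, the gene the study targets, was at 310.5 to 325 CPM (median 316) at E17.5 and 148 to 172 CPM (median 163) at P25 in wild type, a 1.94-fold fall of the mean (log2 fold change -0.96 ± 0.04 (SE), adjusted p = 1.09e-13), and the ages did not overlap. In the heterozygotes its mean went from 228 to 112 CPM (log2 fold change -1.02 ± 0.04, SE). Of the 9 CHD remodellers 8 fell (median -0.77). Chd1 fell most (-1.29) and Chd3, of the NuRD complex, least (-0.18, overlapping groups). Chd5, known from neurons, rose 2.58-fold, from 127 to 164 CPM (median 138) to 349 to 393 CPM (median 370.4) (log2 fold change 1.37 ± 0.06 (SE), adjusted p = 1.04e-13). Of 28 BAF complex genes 24 fell and 1 rose (median -1.15). The catalytic subunit gene Smarca4 fell 2.48-fold, whereas its alternative Smarca2 fell by 0.14 on the log2 scale with overlapping groups. Subunits of the neuronal complex fell too: Actl6b, the neuronal actin-related subunit, was at 75 to 79.9 CPM (median 76.6) at E17.5 and 45.4 to 56.3 CPM (median 52.7) at P25 (log2 fold change -0.57 ± 0.05 (SE), adjusted p = 4.65e-09).

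DNA methylation and polycomb genes had 15 falls and 5 rises among 20. Uhrf1, which brings DNA methylation to replicated DNA, fell 21.4-fold and Ezh2, the polycomb methyltransferase of dividing cells, 15.7-fold. Dnmt3a, which methylates neuronal DNA after birth, rose 1.67-fold. Cbx6 rose 8.32-fold and Cbx7 4.7-fold, while Cbx2 fell 9.09-fold. Zinc finger genes of the Zfp series fell broadly, with 292 of 371 tested lower and 47 higher (median -0.76).

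Among 25 RNA-binding protein genes of development 17 fell and 7 rose. Igf2bp1, a fetal mRNA-binding protein, was at 41.5 to 50 CPM (median 45) at E17.5 and 0.041 to 0.167 CPM (median 0.104) at P25, a 449-fold fall (log2 fold change -9.04 ± 0.15 (SE), adjusted p = 9.11e-20). Igf2bp3 fell 181-fold and Igf2bp2 19.2-fold. Ptbp1 and Ptbp2, splicing repressors of progenitors and young neurons, fell 3.09-fold and 4.05-fold. Rbfox3, the neuronal nuclear antigen NeuN, rose 5.17-fold. Imprinted genes were mixed, with 8 of 15 lower and 5 higher. H19, a fetal noncoding RNA, was at 19.2 to 32.9 CPM (median 25.5) at E17.5 and 0.409 to 0.861 CPM (median 0.601) at P25, and Meg3, a noncoding RNA of neurons, rose 6.6-fold (log2 fold change 2.72 ± 0.07 (SE), adjusted p = 6.27e-17).

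Most energy genes rose and all tested ribosomal protein genes fell, while cholesterol synthesis genes went both ways. Of 24 nuclear genes of oxidative phosphorylation 23 rose and none fell, but the changes were small (median 0.63, 8 of them 2-fold or more). With library totals as the scale, 21 rose and 2 fell, and the complex V gene Atp5c1 changed sign. All 13 mitochondrially encoded genes rose (median 1.64), with mt-Co1 at 5207 to 5503 CPM (median 5389.5) at E17.5 and 17840 to 24000 CPM (median 18520) at P25. Of 18 glycolysis entries 15 rose and 3 fell. Eno2, the neuronal enolase, was at 25.8 to 30.5 CPM (median 28.7) at E17.5 and 558 to 682 CPM (median 606) at P25 (log2 fold change 4.43 ± 0.06 (SE), adjusted p = 1.21e-20), and Aldoc, the astrocyte aldolase, rose 10.9-fold. Hk2 and Pfkp fell, by 0.40 and 0.33 on the log2 scale, and 1 of the 2 genes that carry the symbol Aldoa was the other fall. All 80 tested ribosomal protein genes were lower at P25, from -0.13 (Rps21) to -2.23 (Rplp0). Rplp0 was at 478 to 529 CPM (median 515) at E17.5 and 98.9 to 114 CPM (median 109) at P25 (log2 fold change -2.23 ± 0.05 (SE), adjusted p = 1.58e-18). Reads of ribosomal protein genes and their many processed pseudogenes can be exchanged in counting, and processed pseudogenes as a class had 685 of 1045 tested lower and 134 higher. Cholesterol synthesis genes had 10 falls and 6 rises among 18 (median -0.35), with Fdps at -1.34 and Ebp at 1.71. Of these, 4 falls and 1 rise reached 2-fold. Over all genes tested, 42.8% were lower and 44.1% higher.

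**Figure D4:**
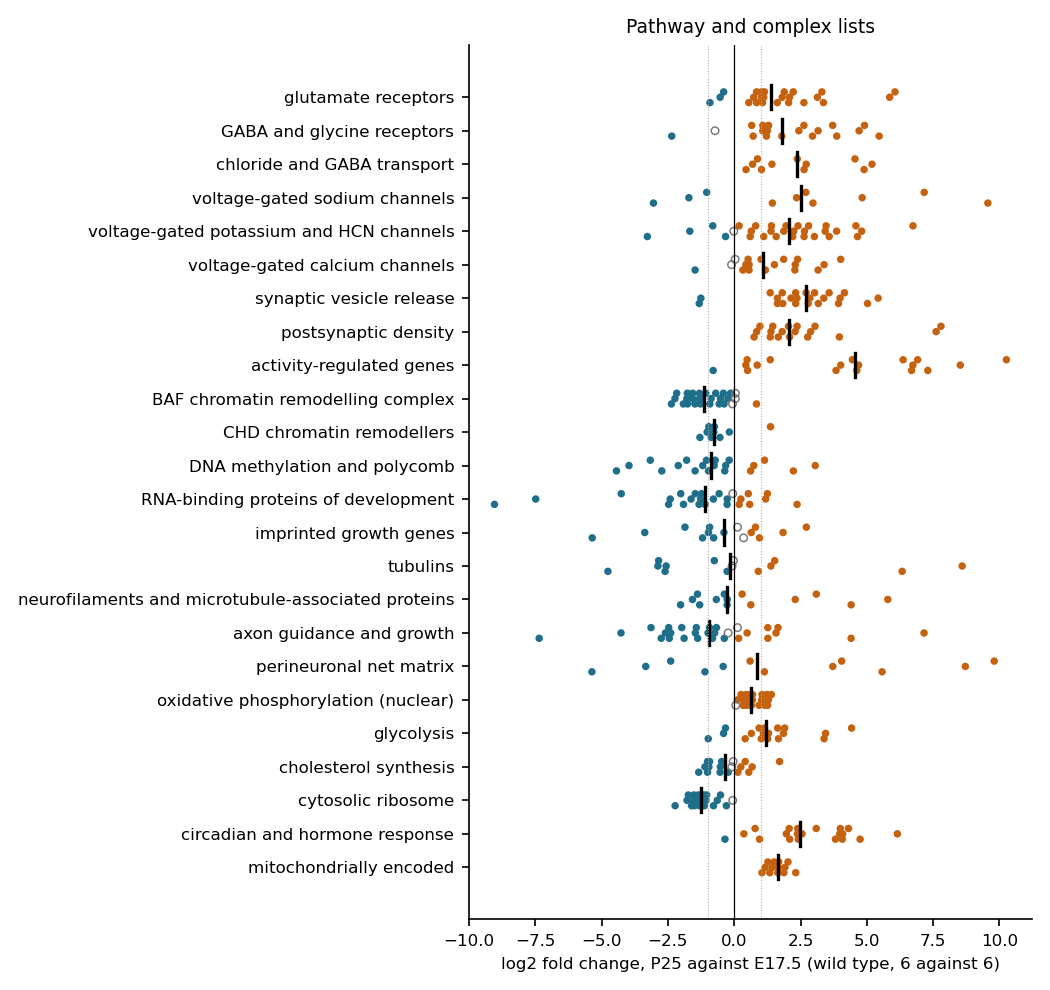
Log2 fold change of each tested gene (1 dot per gene) in pathway and complex lists, P25 against E17.5, drawn as orange for genes that rose, blue for genes that fell and open for genes that did not pass, with the list median as a black bar. Postsynaptic density genes all lie to the right of 0, while BAF complex and cytosolic ribosome genes lie mostly to the left.

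Cytoskeletal and matrix genes went both ways within their families. Among 14 tubulins 7 fell and 5 rose, where 42.8% of all genes tested were lower and 44.1% higher. Tuba1a, the main alpha tubulin of young neurons, was at 3336 to 3602 CPM (median 3399.5) at E17.5 and 438 to 504 CPM (median 466) at P25 (log2 fold change -2.88 ± 0.05 (SE), adjusted p = 1.9e-19), and Tubb2b fell 27.2-fold. Tuba4a was at 3.75 to 5.76 CPM (median 4.63) at E17.5 and 344 to 411 CPM (median 373) at P25, an 80.2-fold rise. The neurofilament genes Nefl, Nefm and Nefh rose 8.55-fold, 4.92-fold and 56-fold, while Stmn1, which frees tubulin from microtubules, fell 4.07-fold. In the perineuronal net list 7 of 12 genes rose and 5 fell. Hapln4, a link protein, was at 0 to 0.14 CPM (median 0.0726) at E17.5 and 52.5 to 82.7 CPM (median 67.4) at P25 (log2 fold change 9.81 ± 0.20 (SE), adjusted p = 9.85e-19), and Bcan, brevican, rose 16.6-fold, while Tnc and Vcan fell as given above. Of 43 tested collagens 30 rose and 8 fell. In the gamma protocadherin cluster 19 of 22 genes fell and 1, Pcdhgc5, rose, by 4.07 on the log2 scale; cluster members share their constant exons, so counting could have exchanged reads between them.

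The largest changes among genes of at least 5 CPM on average came partly from outside the lists. Akr1c19, of the aldo-keto reductase family, was at 10.3 to 14.1 CPM (median 11.7) at E17.5 and 0 to 0.0943 CPM (median 0) at P25 (log2 fold change -9.17 ± 0.28 (SE), adjusted p = 3.08e-16), the largest fall, and St8sia2, which makes the polysialic acid of fetal NCAM, fell 122-fold. Trim67, a brain ubiquitin ligase, fell 95.4-fold, and Tfap2c, a progenitor transcription factor, 138-fold. Zfp663, Ptx3, Veph1 and Adamts7 had log2 fold changes between -8.47 and -6.52. On the other side, Etnppl, an astrocyte phospholyase, had no E17.5 count and was at 20.5 to 39.2 CPM (median 32.9) at P25, at least 2205-fold higher. Fa2h, which makes the hydroxylated lipids of myelin, had 1 E17.5 count and a ratio of 9556 (95% counting interval 1715 to 377435). Cldn11, the claudin of myelin, rose 2759-fold, and Zfp831, Igfn1, Neu4 and Klhdc7a each had 1 to 3 counts at E17.5 and means of 35.1, 38.4, 14.5 and 27.9 CPM at P25. The unnamed transcripts 1700047M11Rik and Gm37111 had none at E17.5 and means of 18.4 and 17.9 CPM.

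The entries with most counts per library, without correction for length, changed as well. After Rn18s-rs5 and mt-Co1, which led at both ages, came Map1b, Eef1a1 and Tuba1a at E17.5 and mt-Cytb, mt-Rnr2 and Slc1a2 at P25. Map1b, the microtubule protein of growing axons, fell 2.61-fold, and Eef1a1, the translation elongation factor, 3.27-fold. The 5 genes with most counts among those within 0.1 on the log2 scale were Gpm6a, Hspa8, Mef2c, Srrm2 and Rtn4. Gpm6a, a neuronal membrane glycoprotein, was at 1353 to 1515 CPM (median 1489) at E17.5 and 1436 to 1729 CPM (median 1548) at P25 and Hspa8, the constitutive heat shock chaperone, at 1142 to 1201 CPM (median 1182) at E17.5 and 925 to 1272 CPM (median 1124) at P25; neither passed the test, and the groups overlapped. The sign of Gpm6a, Mef2c, Srrm2 and Rtn4 depended on the scaling or on 1 library, as given in the closing section.

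Longer protein-coding genes rose more often. Among 1520 genes that span under 5 kb in GENCODE M21, 27.4% rose and 18.4% fell by at least 2-fold. Among 941 genes over 200 kb, 41.3% rose and 14.2% fell by at least 2-fold, and 568 rose and 290 fell at any size. The median log2 fold change was 0.09 in the shortest class, -0.01 at 20 to 50 kb and 0.59 in the longest. These shares describe genes, which are not independent replicates, and the mitochondrial share of counts moved with age beside them; its part in them was not tested.

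**Figure D5:**
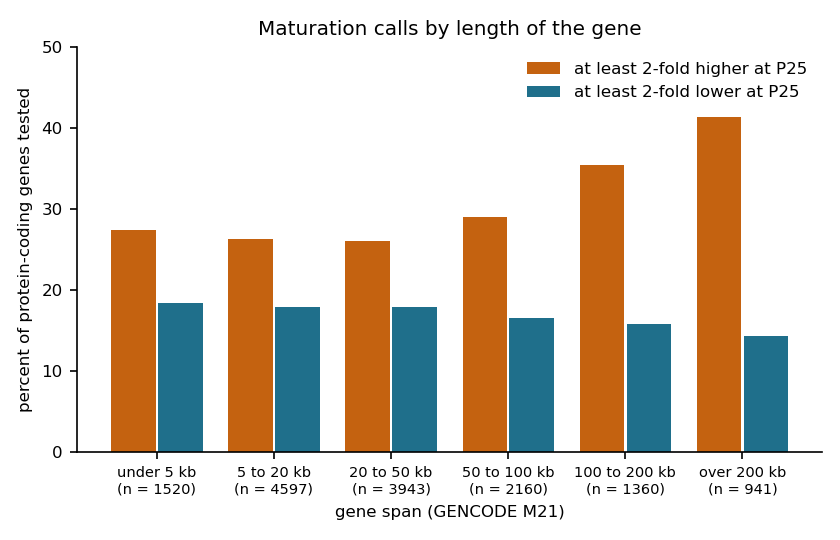
Percent of tested protein-coding genes that were at least 2-fold higher (orange) or lower (blue) at P25, by the span of the gene in GENCODE M21, with the number of genes per class below the bars. The orange bars are 27.4% under 5 kb and 41.3% over 200 kb, and the blue bars 18.4% and 14.2%.

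Males and females were compared by an age by sex term. No gene of 18809 passed the threshold in edgeR (551 had an unadjusted p under 0.05), and DESeq2 called 0 as well. The smallest p-values belonged to Gm44220, Abtb1 and Gbp2, each with an adjusted p of 0.9999. Xist, which silences 1 X chromosome in females, had medians of 2771 CPM in E17.5 females and 1059 CPM in P25 females.

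The same contrast was fitted in the 12 heterozygous libraries, 6 at E17.5 and 6 at P25, which share no library with the wild type contrast but come from the same litters. Of 19050 genes tested 16561 (86.9%) were called. Of the 16149 wild type calls tested there, 15624 (96.7%) were called with the same sign and 0 with the opposite sign. The median absolute difference of the log2 fold changes was 0.0655 among genes of at least 1 CPM on average. The choroid plexus list was less alike, with a median of 5.92 in wild type and 3.68 in heterozygotes. The term for a difference of the age change between genotypes called 1 of 20294 genes (0.00493%), the predicted gene Gm28512, in edgeR, while DESeq2 called 4. Its means were 9.25 and 1.32 CPM in wild type females at E17.5 and P25, 9.26 and 1.03 CPM in wild type males, 11.1 and 0.621 CPM in heterozygous females, and 10.7 and 0.63 CPM in heterozygous males. The fall was smaller in wild type by 1.12 ± 0.175 (SE) on the log2 scale (adjusted p = 0.018).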

How the data were processed

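For each age the authors deposited a table of unnormalized counts, in whole reads, over 55359 genes. The submitters' processing notes name STAR 2.7.9a, featureCounts, Subread and build mm39; annotation release and strand setting were not stated, so overlapping, antisense and near-identical genes may have exchanged reads. Libraries were polyA RNA, 2 x 100 bases, per the labels' protocols.

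The 6 wild type libraries per age were matched to columns by their label. Genes were kept by filterByExpr and tested with edgeR 4.0.16 (quasi-likelihood, TMM, sex as covariate, R 4.3.3), with Benjamini-Hochberg adjustment at 0.05. SE values are the log2 fold change over the root of the F statistic. Folds are ratios of mean CPM, except that a group with 3 or fewer counts enters as its summed counts over its summed library sizes. A gene with no count in a group was set to a floor of 3 counts over the group, and ratios with 1 to 3 counts carry exact Poisson intervals; both cover counting error only, since reads without molecular identifiers are not independent molecules. The labels say that animals were processed individually, so the spread used in the tests is that between animals. The fit held no litter term, and which wild type libraries share a litter is not stated. No 2 libraries of an age were copies (chi-square per degree of freedom 7.07 or more). Libraries are named by the replicate number in their titles, which for the 6 E17.5 libraries differs from the number in the deposited column names. No number is stated to pair libraries across ages, so no block was used.

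The fits were first run on simulated counts in which a small, known set of genes was changed. In the real contrast 86.9% of genes were called, so those runs do not show how the scaling behaves here. Genes named were Chd8, members of the lists, families and pairs, the 15 largest rises and falls of at least 5 CPM on average, the 5 entries with most counts per age, 5 abundant genes within 0.1 in log2, and the 3 smallest p-values per interaction. Members and lists were chosen with earlier results of these data known. Motif shares were computed for the cell cycle list and for all 27025 promoters, which include genes not tested here. They were not computed for other gene sets, because promoters were found for 78.5% of tested protein-coding genes. Alternatives were DESeq2 1.42.0, RLE, upper quartile and total-count scaling, other filters, no sex term, a replicate block, thinning, and leaving out libraries. The E12.5 libraries were not used here. Some list members and 2 of the pairs are not reported here.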

Additional observations from a re-analysis of the deposited data

Results flagged for a closer look

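Each group of 6 libraries was examined for a library far from the rest by the gap test of Dixon. Over 192 groups 13 were found, and chance alone flags about 1 in 20 groups. At E17.5 the radial glia sum of female 3 was 2205 CPM, below the 2351 to 2409 CPM of the others, and its microglial sum was 56.9 CPM, above 43.7 to 48.2 CPM. The inhibitory neuron sum of E17.5 male 3 was 468 CPM, above 401 to 421 CPM. At P25 the astrocyte sum of female 3 was 13849.5 CPM against 11778 to 12521 CPM, its glutamate receptor sum 4610.4 CPM against 4989 to 5209 CPM, and its 10 largest entries took 12.7% of counts against 11.03% to 11.6%. P25 male 2 had a meningeal sum of 179 CPM against 99.1 to 129 CPM and a hippocampal sum of 625 CPM against 478 to 526 CPM. P25 female 1 had 108258000 counts (rounded) against 25325593 to 34606305, and its Eomes level was 0.733 CPM against 0.126 to 0.33 CPM. Single E17.5 libraries held all reads of Fa2h (0.0388 CPM), Zfp831 (0.0279 CPM) and Neu4 (0.0297 CPM), each 1 count. The age change of Gm28512 differed between genotypes by 1.12 on the log2 scale in the interaction test reported above.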

How the results depend on the processing

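Counts of calls for the wild type age change stayed within 1.5 times the reported numbers under every alternative run, except without the low-count filter, which tests more genes by construction: 36971 genes were tested and 13449 changed at least 2-fold, 7788 upward and 5661 downward. Without that filter the age by sex term called 31 genes, against 0 reported. The age by genotype term called 65 without the filter and 4 with DESeq2, against 1 reported. Scaling by library totals without TMM moved the median log2 fold change of all genes to -0.21; 7235 genes were then higher and 9336 lower (43.7% of calls higher, against 50.8%), and 37 reported calls had the opposite sign. Under it 4556 genes were at least 2-fold higher and 4810 at least 2-fold lower, against 5186 and 3770 reported. Gpm6a was then at -0.13, Mef2c at -0.14 and Srrm2 at -0.21. Srrm2 was at -0.043 with upper quartile scaling and at -0.0567 without the filter. Leaving out 1 library at a time gave Srrm2 values from -0.0369 to 0.0405 and Rtn4 values from -0.0832 to 0.0197, against 0.0108 and -0.0329 reported. The thalamus marker list, with 2 of 6 tested genes higher and 2 lower, had a median of -0.27, which became 0.0321 when at least 1 CPM in 6 libraries was required. Correlations of same-numbered libraries across ages were -0.13 to 0.08 by title number and -0.11 to 0.13 by column number, and not every library correlated best with its own number by either. A replicate block by title number gave 8244 higher and 8016 lower, 16260 in all, of which 16192 were reported calls with the same sign. A block by column number, chosen after seeing the data, gave 8226 and 7989, with 16148 such calls. P25 female 1, the deepest library, left 8232 higher and 8061 lower when removed. Without the 2 choroid-rich libraries, an alternative chosen after seeing the data, 15884 reported calls held, and Rtn4 was at 0.00255.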
